A study of Mus musculus with 6 samples.

Results

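The 5 genes Kctd12, Kctd8, Kctd16, Gabbr1 and Gabbr2 encode the GABA-B receptor and its KCTD partners, out of 55335 genes in the count table. They were chosen on measured values, because Kctd12 had 0 counts in 2 of the 3 aorta libraries of 6-month-old mice, and the other 4 were taken by name as its partners. Aorta was collected from C57BL/6 mice aged 6 weeks (young, 3 mice) or 6 months (aged, 3 mice). The paper describes the mice as male, but sex-linked genes in young replicate 1 go against this, as given below. The labels name no treatment and no engineered allele, and 1 library was made from each mouse, from a piece of aorta. The paper states that fat around the aorta was dissected under a microscope. Markers of fat cells and brown fat were still counted in each library, with the highest sums in aged replicate 2, as given below. The design compared the age groups, and the 5 genes are described in each library below.

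GABA-B receptors are G protein-coupled receptors for the transmitter GABA. The product of Gabbr1 binds GABA, while the product of Gabbr2 carries the Gabbr1 protein to the cell surface and couples to inhibitory (Gi/o) G proteins. KCTD8, KCTD12, its relative KCTD12b and KCTD16 are auxiliary subunits that bind the tail of the Gabbr2 protein, and KCTD12 makes the potassium current that follows receptor activation desensitize quickly. The complex is best known from neurons.

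Kctd12 (ENSMUSG00000098557) lies on the minus strand of chromosome 14, from 102976581 to 102982637 in GENCODE M21 (GRCm38), and its longest transcript is 1 exon of 6057 bases with a coding sequence of 981 bases. Gabbr1 (ENSMUSG00000024462) lies on the plus strand of chromosome 17, from 37045966 to 37075067, with 23 exons in its longest transcript. The 250 bases before each start (RefSeq, GRCm38.p6) are shown because Kctd12 had either 0 counts or at least 620 in a library while Gabbr1 was counted in each library. Both run 5′ to 3′ on the gene's strand, at chr14:102982638-102982887 for Kctd12 and chr17:37045716-37045965 for Gabbr1. Capitals mark GC boxes, GGGCGG or its reverse complement CCGCCC, the letters bound by SP-family factors. The last sequence is the mature miR-5130, with its seed (bases 2 to 8) in capitals, because its gene lies inside Kctd12.
Kctd12 promoter: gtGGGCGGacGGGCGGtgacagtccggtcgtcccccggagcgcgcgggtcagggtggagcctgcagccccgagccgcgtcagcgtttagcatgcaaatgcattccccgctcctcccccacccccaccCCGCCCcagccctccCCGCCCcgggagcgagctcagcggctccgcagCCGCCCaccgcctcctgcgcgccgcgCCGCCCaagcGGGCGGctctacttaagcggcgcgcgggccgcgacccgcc
Gabbr1 promoter: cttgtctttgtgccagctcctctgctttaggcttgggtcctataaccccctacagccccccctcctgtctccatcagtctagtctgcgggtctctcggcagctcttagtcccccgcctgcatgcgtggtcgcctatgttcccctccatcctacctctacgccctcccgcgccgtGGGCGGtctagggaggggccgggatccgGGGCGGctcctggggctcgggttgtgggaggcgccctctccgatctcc
miR-5130: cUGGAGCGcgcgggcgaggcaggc

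The Kctd12 window held 7 GC boxes and 36 CpG, with a GC content of 77.6%. The Gabbr1 window held 2 GC boxes and 16 CpG, with a GC content of 66%. Of 32851 windows of this length before mouse genes, 32.7% held a GC box, and the medians were 6 CpG and a GC content of 52.4%. The letters TATAAA or their reverse complement were in neither window and in 12.4% of all windows. The Gabbr2 window held 2 GC boxes and, with 37 CpG and a GC content of 80.8%, was richer in both than that of Kctd12. The Kctd8 window held 0 GC boxes and 5 CpG, with a GC content of 53.6%. The Kctd16 window is not reported here.

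Total counts lay between 31049632 and 45832185 per library, and 16612 genes passed the filter on low counts, among them 3 of the 5 genes (Kctd12, Kctd16 and Gabbr1). The summed level of 6 smooth muscle markers was between 28000 and 40100 CPM (counts scaled to a common library size) in each library, so the labelled tissue carried its defining genes. Young replicate 1 had 305.6 CPM of Xist, the RNA of the inactive X chromosome, and 1.09 CPM of the Y-linked Ddx3y, against 0.204 to 0.636 CPM and 44.8 to 65.6 CPM in the other 5 libraries, which goes against the male mice that the study describes. On the first principal component, aged replicates 1 and 3 (59.6 and 51.3) stood on the opposite side of 0 from the other 4 libraries (-46.1 to -12). Mitochondrial genes took 14.9% to 21.2% of the counts in young and 23.1% to 30.4% in aged libraries. By edgeR's quasi-likelihood test, 0 of 16612 genes (0%) had an adjusted p below 0.05, while 1723 had an unadjusted p below 0.05. DESeq2 called 338 of 14955 genes (2.26%).

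Gabbr1, the subunit that binds GABA, was the highest of the 5 genes in each library. Its FPKM (a level per transcript length and library size) was 7.04, 9.55 and 10.2 in young replicates 1 to 3 and 5.03, 7.64 and 5.90 in aged replicates 1 to 3. In CPM, which is scaled for library size but not length, it was 57.5, 75.7 and 79.4 in young and 45.9, 69.4 and 56.8 in aged libraries. The groups overlapped, since aged replicate 2 lay above young replicate 1. The group means were 70.9 ± 11.7 and 57.4 ± 11.8 CPM (SD, n = 3 each), with a log2 fold change of aged over young of -0.30 (SE 0.21, adjusted p = 0.634 by edgeR). Without young replicate 1 the log2 fold change was -0.43 (adjusted p = 0.50), and without aged replicates 1 and 3, a choice made after the data were seen, it was -0.03 (adjusted p = 0.99). In bulk tissue, fewer cells of a type and less RNA per cell cannot be told apart.

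Gabbr2 (ENSMUSG00000039809, chromosome 4, 46662305 to 46991873, minus strand) encodes the subunit that couples to the G protein, and it was close to absent. It had 3, 4 and 9 counts in the young libraries and 0, 15 and 0 in the aged ones. The 2 libraries at 0, aged replicates 1 and 3, were the same 2 in which Kctd12 was at 0. Its level over a group was 0.136 CPM in young (95% exact Poisson interval 0.0778 to 0.221) and 0.151 CPM in aged libraries (0.0846 to 0.249). These intervals cover counting error only and overlap. As a percent of the Gabbr1 FPKM, Gabbr2 was 0.0837, 0.175 and 0.342 in the young libraries and 0, 0.622 and 0 in the aged ones. The limit that 0 counts allow, 3 counts in a library, was 0.0903 CPM in aged replicate 1 and 0.106 CPM in aged replicate 3, so at this depth a level such as that of young replicate 1 was not detectable there.

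Kctd12, the desensitizing auxiliary subunit, had 815, 620 and 939 counts in the young libraries and 0, 748 and 0 in the aged ones. Its CPM was 16.8, 17.8 and 27.4 in young replicates 1 to 3 and 0, 19.8 and 0 in aged replicates 1 to 3. Its FPKM was 2.63, 2.87 and 4.50 in young and 0, 2.79 and 0 in aged libraries. Aged replicate 2 lay within the young range, at 0.959 of the young mean, and the 4 libraries with counts differed by at most 1.63-fold. With 3 counts as the limit for a 0, Kctd12 was at least 186-fold lower in aged replicate 1 and at least 158-fold lower in aged replicate 3 than in the lowest of the other 4 libraries. The aged group was thus split rather than shifted, and the fitted log2 fold change of -1.64 (SE 1.71) describes neither kind of aged library. No p is given for it, since these values chose the gene.

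**Figure D1:**
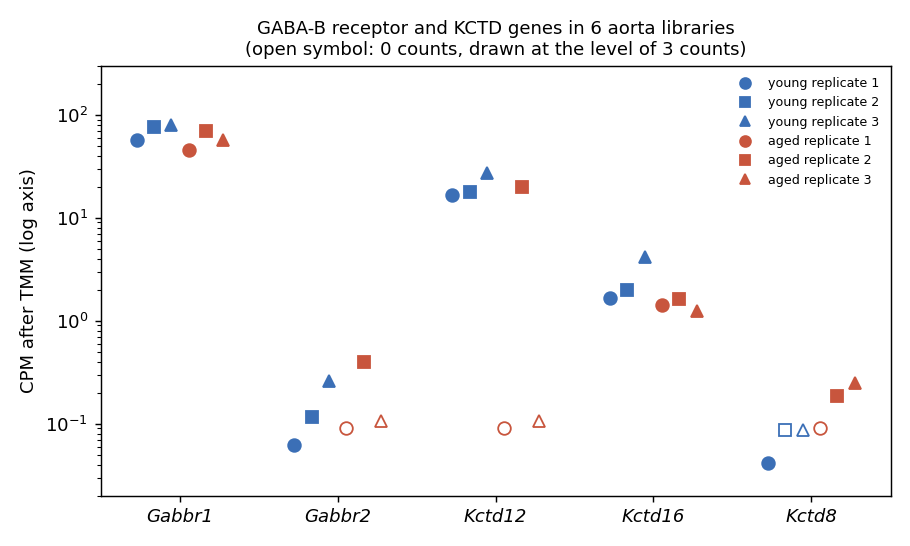
CPM after TMM scaling (log axis) of the 5 genes in the 6 libraries, with color for the age group, symbol for the replicate, and open symbols for 0 counts drawn at the level of 3 counts. Kctd12 sits between 16.8 and 27.4 CPM in 4 libraries and at 0 in aged replicates 1 and 3, Gabbr1 lies between 45.9 and 79.4 CPM, and Gabbr2 and Kctd8 lie near the level of 3 counts.

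The aged libraries spread over 7.64 on the log2(CPM + 0.1) scale for Kctd12, and 7 of the 16612 tested genes spread further. This rank is a description and not a test, since these values chose Kctd12. The young libraries spread over 0.698, at the 61.63th percentile of all tested genes. Of 12470 genes with at least 50 counts in each of the other 4 libraries, 2 were at 0 in both aged replicate 1 and aged replicate 3, Kctd12 and the predicted gene Gm4767. Gm4767 had 118, 128 and 91 counts in young and 0, 89 and 0 in aged libraries. Complete zeros beside high counts were also found in other sets of libraries, for Qser1, Gm20716 and ENSMUSG00000118575.

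**Figure D2:**
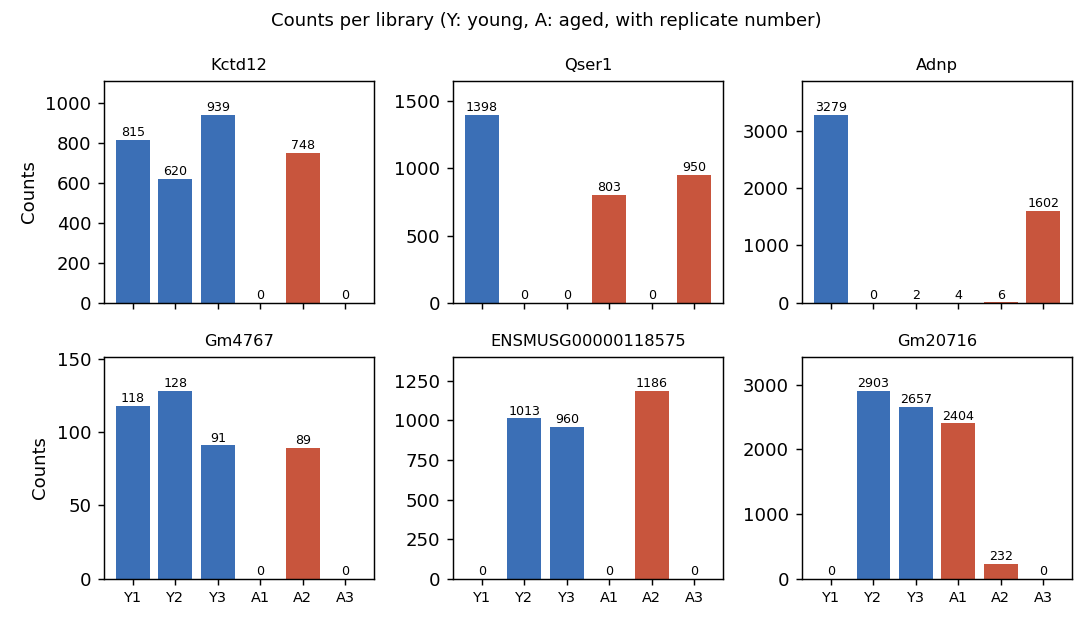
Counts per library of Kctd12, Gm4767, Qser1, ENSMUSG00000118575, Adnp and Gm20716, as bars from 0 with color for the age group (Y: young, A: aged, with the replicate number). Kctd12 and Gm4767 are at 0 in the same 2 aged libraries, and Qser1 and ENSMUSG00000118575 are at 0 in opposite libraries.

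Annotated genes overlap Kctd12 in its single exon. Mir5130, of 84 bases, lies on the same strand from 102982549 to 102982632, which is 5 to 88 bases after the Kctd12 start. It had 0 counts in the 3 young libraries and 1, 0 and 1 in aged replicates 1 to 3. Its only counts fell in the 2 libraries where Kctd12 was at 0. A single count is below the limit of 3 counts used here for a 0, so these are too few to show a pattern. The long noncoding gene Gm26778 lies on the opposite strand from 102978220 to 102982528, with exons of 3686 and 119 bases, and its counts were not used here. Of the 6057 stretches of 50 bases (the read length) in Kctd12 transcripts, 42 (0.693%) also occur on the same strand of other genes' transcripts and 3715 (61.3%) on the opposite strand, which includes Gm26778. The exons of Gm26778 lie 109 to 227 and 732 to 4417 bases after the Kctd12 start, and the rest of the 6057 bases lies outside them. Without a statement that strand was used in counting, reads of Kctd12 and of Gm26778 cannot be told apart over the stretches they share. What these overlapping genes contributed to the zeros was not tested.

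**Figure D3:**
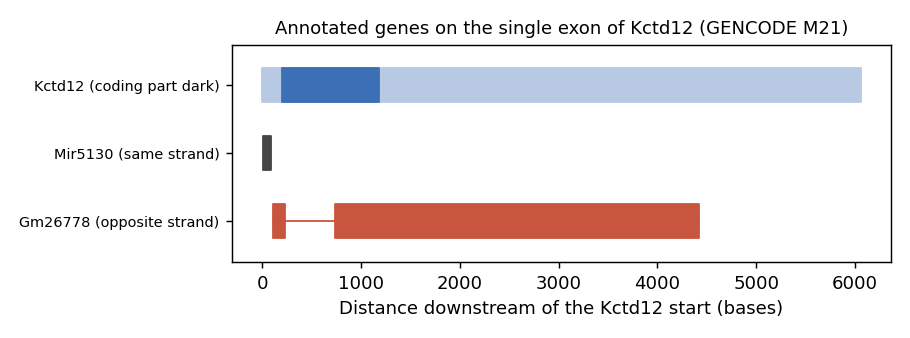
Annotated genes across the single exon of Kctd12, in bases downstream of its start (GENCODE M21): Kctd12 with its 981-base coding part in dark, Mir5130 on the same strand, and the exons of Gm26778 on the opposite strand. Mir5130 lies 5 to 88 bases after the start, and the 3686-base exon of Gm26778 covers much of the middle.

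Of Kctd12's neighbors on chromosome 14, Mycbp2, a ubiquitin ligase gene 131 kb away, did not share its zeros. It had 50.8, 51.9 and 54.3 CPM in young and 42.6, 43.6 and 45.6 CPM in aged libraries (log2 fold change -0.25, SE 0.13, adjusted p = 0.544 by edgeR). Each aged library lay below each young one. On the other side the nearest tested genes were 994 to 1280 kb away, an unnamed gene, Lmo7 and Uchl3, each with at least 82 counts in each library.

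Kctd16 (ENSMUSG00000051401, chromosome 18, 40256962 to 40531630, plus strand) encodes an auxiliary subunit with little desensitizing effect. It had 81, 69 and 142 counts in young and 47, 62 and 35 in aged libraries, which is 1.67, 1.98 and 4.14 CPM against 1.41, 1.64 and 1.24 CPM. The groups did not overlap, though aged replicate 2 lay only just under young replicate 1, and the highest young library stood above the other 2. The means were 2.6 ± 1.34 and 1.43 ± 0.203 CPM (SD, n = 3 each), with a log2 fold change of -0.85 (SE 0.44, adjusted p = 0.543 by edgeR). Groups that do not overlap, with aged lower, were found for 8.78% of all tested genes. Without young replicate 3 the log2 fold change of Kctd16 was -0.34 (adjusted p = 0.929), and without young replicate 1 it was -1.08 (adjusted p = 0.44). Unlike Kctd12, Kctd16 was counted in aged replicates 1 and 3.

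Kctd8 (ENSMUSG00000037653, chromosome 5, 69109285 to 69341679, minus strand), the other subunit with little desensitizing effect, was close to absent. It had 2, 0 and 0 counts in young and 0, 7 and 7 in aged libraries. Its level over a group was 0.017 CPM in young (95% exact Poisson interval 0.00206 to 0.0615) and 0.141 CPM in aged libraries (0.0771 to 0.237). These intervals do not overlap, but they hold counting error and not the spread between mice, and aged replicate 1 was at 0 like 2 young libraries.

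Per length, the mean FPKM over the 6 libraries was 7.56 for Gabbr1, 2.13 for Kctd12, 0.53 for Kctd16, 0.0175 for Gabbr2 and 0.0172 for Kctd8. Gabbr1 was first in each library, and Kctd12 was above Kctd16, and Kctd16 above the remaining genes, in each library with Kctd12 counts. The order of Gabbr2 and Kctd8 changed between libraries. Within a library the ratio of Kctd12 to Gabbr1 FPKM was 0.374, 0.301 and 0.44 in young and 0, 0.365 and 0 in aged libraries. The ratio of Kctd16 to Gabbr1 was 0.0631, 0.0571 and 0.115 in young and 0.0685, 0.0505 and 0.048 in aged libraries, so it overlapped between the groups while Kctd16 itself did not.

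Over the 6 libraries, Pearson's correlation with Kctd12 on the log2(CPM + 0.1) scale was 0.827 for Gabbr2, 0.804 for Gabbr1, 0.642 for Kctd16 and -0.259 for Kctd8. The 2 zeros of Kctd12 set these values, which are given with no test. Among 14084 genes that averaged 1 CPM or more, those most like Kctd12 were Gm4767 (0.993), Mff (0.991), Sfmbt1 (0.99), Tpcn2 (0.988) and Ntrk3 (0.983). Apart from Gm4767 they were lower in aged replicates 1 and 3 without reaching 0. Ntrk3, a neurotrophin receptor, had 265, 280 and 314 CPM in young and 170, 283 and 148 CPM in aged libraries. Sfmbt1, a chromatin protein, had 17.8, 14.2 and 19.6 CPM in young and 5.03, 18.3 and 4.53 CPM in aged libraries. Of all tested genes, 10.1% were lower and 13.7% higher in both of these aged libraries than in the other 4.

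Summed markers of 5 cell types split the libraries in the same way. The summed level of 6 fibroblast markers was 1860, 2130 and 2860 CPM in young and 6580, 1700 and 4830 CPM in aged replicates 1 to 3, and 5 of the 6 genes were outside the range of the other 4 libraries in both aged replicates 1 and 3. The 6 macrophage markers summed to 112, 90.6 and 85.6 CPM in young and 369, 116 and 246 CPM in aged libraries, with 6 of 6 genes split this way. Schwann cell markers (2 of 6 genes split this way) ranged from 29.4 to 39 CPM in the 4 libraries with Kctd12 counts and were 65.8 and 68 CPM in the other 2. Lymphatic endothelial markers (3 of 6) were 13.2 to 28 CPM against 56 and 82.8 CPM. The genes that split were Lyve1, Pdpn and Reln. Prox1 was highest in young replicate 1 (1.135 CPM), while Flt4 and Ccl21a were highest in aged replicate 3 but within the range of the other libraries in aged replicate 1. Neuron markers (2 of 6) were 5.91 to 14.2 CPM against 18.5 and 32.9 CPM. Of these, Stmn2 alone was 6.77 and 24.6 CPM in aged replicates 1 and 3, Tubb3 was highest in aged replicate 2 (4.08 CPM), Snap25 and Th were at 0 in the 3 aged libraries, and Rbfox3 was at 0 in aged replicate 1 and the young libraries. The part of cell makeup in the Kctd12 zeros was not tested.

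Summed markers of endothelium (323 to 1560 CPM) and fat cells (412 to 1890 CPM) did not split in this way. The endothelial sum was highest in aged replicate 3 and the fat-cell sum in aged replicate 2. Brown fat markers summed to 244, 569 and 82.9 CPM in young and 74.6, 1870 and 94.5 CPM in aged replicates 1 to 3. Aged replicate 2, the aged library with Kctd12 counts, thus had the highest sums of both fat lists. The brown fat gene Ucp1 alone was 1422 CPM there and 45.2 to 361 CPM in the other libraries. How much fat was left on each piece of aorta after dissection was not tested. Cardiac muscle markers were 325 CPM in young replicate 1 and 44.9 to 62.1 CPM elsewhere. The 3 genes of the active arm of the circadian clock, 2 of which split in this way, summed to 19.5 and 17.6 CPM in aged replicates 1 and 3 and to 34.9 to 181 CPM in the other 4 libraries. The 7 genes of the repressor arm did not split, with sums of 1020 and 1150 CPM in aged replicates 1 and 3. Young replicate 1 was again furthest out, at 202 CPM, against 843 to 1510 CPM in all other libraries.

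**Figure D4:**
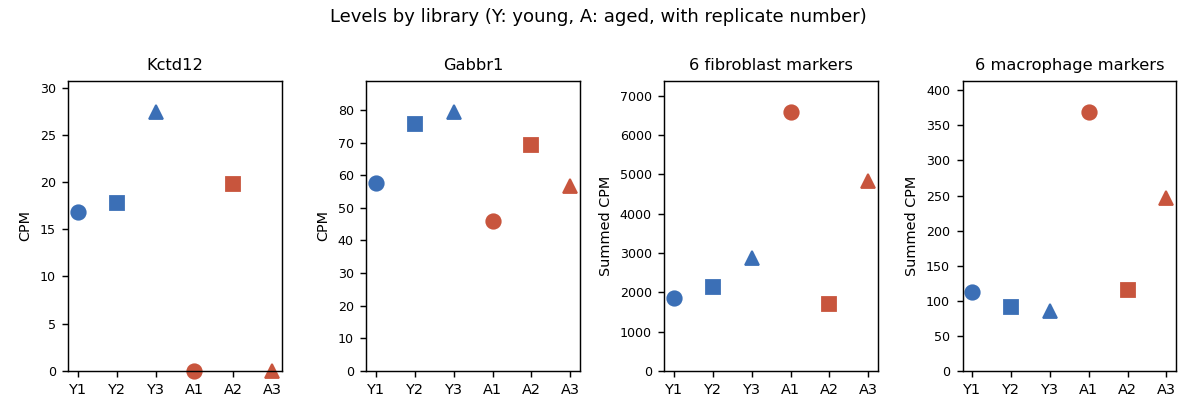
Levels of Kctd12 and Gabbr1 (CPM) and summed CPM of 6 fibroblast and 6 macrophage markers in the 6 libraries, 1 point each, with color for the age group. Aged replicates 1 and 3 have no Kctd12 and the highest sums of both marker lists, while aged replicate 2 lies near the young libraries in Kctd12 and in both sums.

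The other genes of the pathway were read from lists of names. For all 6 lists the edgeR test called 0 genes. Of 22 other KCTD family genes 19 were tested, with 10 above and 9 below 0 in log2 fold change and a median of 0.03, beside 0.02 for all tested genes. At an unadjusted p below 0.05, 0 were higher and 2 lower (background 5.56% higher and 4.82% lower). Kctd12b, the closest relative of Kctd12, had 457, 231 and 344 counts in young and 314, 243 and 337 in aged libraries (log2 fold change 0.09), with no library near 0. Kctd10, a ubiquitin ligase adaptor, was the highest of the list at a mean FPKM of 77.5 (log2 fold change 0.04, SE 0.16), followed by Kctd17 at 14.9 (-0.40, SE 0.27). The sign of Kctd10 turned on the log2 FPKM scale. Kctd21 and Kctd3 were lower in each aged library than in each young one (log2 fold changes -0.63 and -0.41, adjusted p = 0.446 and 0.472 by edgeR).

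Among 8 other proteins that bind the GABA-B receptor, 6 were tested, with 5 above 0 and 1 below (median 0.11). Atf4, a stress-response transcription factor, had a mean FPKM of 47.2 (log2 fold change 0.19, SE 0.16), with its sign turned on the log2 FPKM scale. Ywhaz, a 14-3-3 adaptor, had a mean FPKM of 46.5 (0.55, SE 0.22, adjusted p = 0.462 by edgeR).

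Of 19 Gi/o protein subunits 16 were tested, with 10 above and 6 below 0 (median 0.08). Gnai2, an inhibitory alpha subunit, had a mean FPKM of 66.3 and a log2 fold change of 0.02 (SE 0.16), and Gng11, a gamma subunit, had 33.5 and -0.11 (SE 0.20). Both signs turned under other settings. Gng5 was higher in each aged library (log2 fold change 0.30, adjusted p = 0.504 by edgeR), as 7.74% of tested genes were, while Gng2 had a log2 fold change of 0.85 (SE 0.35, adjusted p = 0.472) with overlapping groups.

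Of 15 effector channels and adenylyl cyclases 9 were tested, with 4 above and 5 below 0 (median -0.03). The potassium channels that GABA-B receptors open in neurons were near 0, with 24, 0 and 27 counts of Kcnj3 in young and 0 in the 3 aged libraries, and 3 counts of Kcnj6 in young replicate 1 alone. The highest cyclase genes were Adcy5, at a mean FPKM of 87.0 (log2 fold change -0.13, SE 0.18), and Adcy6, at 21.1 (-0.23, SE 0.24), while the lowest, Adcy8, had at most 22 counts in a library. Adcy5's sign turned without aged replicates 1 and 3. Adcy9 had 404, 337 and 507 counts in young and 170, 189 and 217 in aged libraries. Its groups did not overlap (log2 fold change -0.88, SE 0.30, adjusted p = 0.415 by edgeR). Cacna1a, a calcium channel, had a log2 fold change of 1.16 (SE 0.46, adjusted p = 0.457).

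Of 11 genes of GABA synthesis, transport and breakdown 5 were tested, with 3 above and 2 below 0 (median 0.35). The genes of the glutamate decarboxylases, which make GABA from glutamate, were near 0, with at most 27 counts of Gad1 and at most 6 of Gad2 in a library, and the vesicular transporter Slc32a1 had 0 counts in each library. Maob (12.5) and Aldh9a1 (8.10), enzymes of the route that makes GABA from putrescine, had the highest mean FPKM, with 801 to 2169 and 662 to 1819 counts per library. Their log2 fold changes were 0.35 (SE 0.30) and 0.40 (SE 0.30). Abat, the GABA transaminase, was lower in each aged library (log2 fold change -0.34, SE 0.16, adjusted p = 0.524 by edgeR), and Aldh5a1, the next enzyme, had 0.68 (SE 0.39, adjusted p = 0.576).

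GABA-A receptors are the chloride channels that GABA opens directly. Of 19 subunit genes 6 were tested, and the 6 were above 0 (median 0.51). Gabra3 had the highest level, at a mean FPKM of 35.9 (log2 fold change 0.43, SE 0.23), followed by Gabre at 11.8 (0.23, SE 0.30), whose sign turned without young replicate 1. Gabrq had 118, 110 and 109 counts in young and 297, 277 and 220 in aged libraries, or 2.44, 3.16 and 3.18 against 8.94, 7.34 and 7.79 CPM. Each aged library lay above each young one, aged replicate 2 included. The log2 fold change was 1.46 (SE 0.24, unadjusted p = 0.000417, adjusted p = 0.295 by edgeR), and DESeq2 called it with an adjusted p of 6.37e-05.

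**Figure D5:**
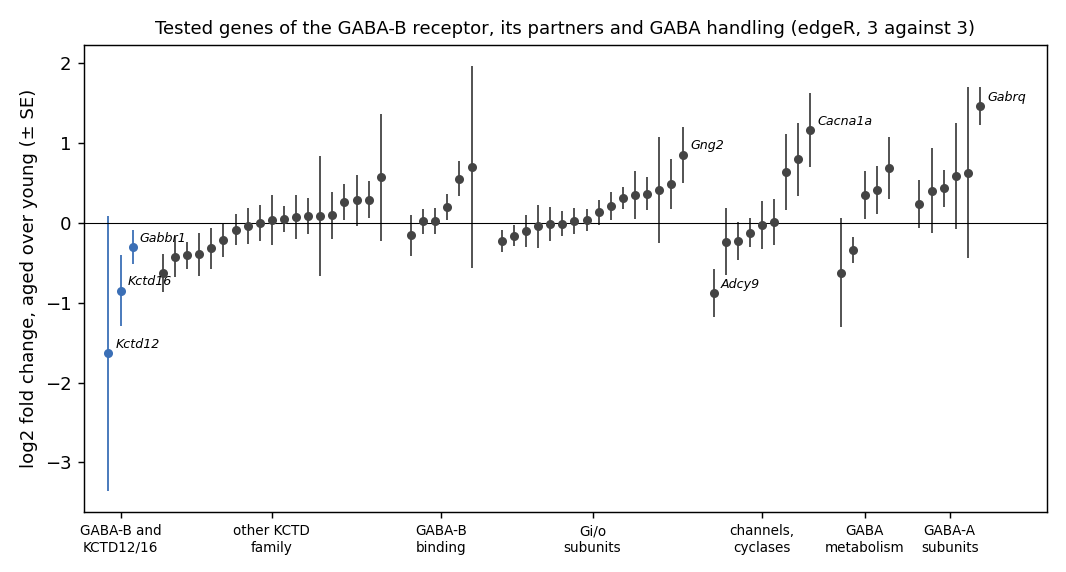
log2 fold change of aged over young (± SE, edgeR, 3 libraries a group) for the tested genes of the GABA-B receptor and each list, ordered by value within a list. Kctd12 has the widest error bar (-1.64, SE 1.71), Kctd16 and Gabbr1 lie at -0.85 and -0.30, and Gabrq is the highest of the tested GABA-A subunits at 1.46.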

How the data were processed

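Aorta RNA of 3 young and 3 aged mice was sequenced single-ended for 50 cycles. The authors deposited whole-number counts per gene and, per the file headers, FPKM, which were proportional to the counts within a gene (SD 0.00102 on the log2 scale over 6211 genes). The submitters' processing notes name mm10, while the aligner, counter, annotation and strand setting are not given in the sources used here. The counts were analysed in R 4.3.3 with edgeR 4.0.16. Low genes were removed per group (filterByExpr at 10 counts and a total of 15), followed by TMM scaling and a quasi-likelihood test without covariates, with Benjamini-Hochberg adjustment over all 16612 genes and a threshold of 0.05. All CPM are after TMM scaling. DESeq2 1.42.0 and limma 3.58.1 on log2 FPKM were alternatives. P values measure the spread between 3 mice a group, and exact permutation of 3 against 3 cannot go below 0.1. Low counts carry exact Poisson intervals (95%), and 0 counts were read as at most 3 counts, both for counting error only.

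Total counts of 31049632 to 45832185 make 3 counts worth 0.0619 to 0.106 CPM. Of 55335 identifiers, 55154 were found in GENCODE M21. The 5 genes and the gene lists were chosen with earlier results of these data known. Named were the 5 genes, the 2 genes of each list with the highest mean FPKM and the 2 with the smallest p, the 5 genes most like Kctd12, its 3 nearest tested genes on each side, and markers that touch a result. Some of these neighbors are not reported here. Others (Kctd12b, the potassium channels, Gad1, Gad2, Slc32a1, Adcy8 and the genes that were at 0 in some libraries) were named after their values were seen. Promoters and the miRNA are RefSeq sequences. The scripts were tested on simulated data.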

Additional observations from a re-analysis of the deposited data

How the results depend on the processing

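The count of genes called was 0 with edgeR under TMM or RLE size factors, other filters, limma on log2 FPKM and the replicate block, and 338 with DESeq2 (221 higher, 117 lower). It ranged from 0 to 110 when single libraries were left out, the 110 (100 higher, 10 lower) without aged replicate 2. The log2 fold change of Kctd12 was -5.43 with the replicate block and -3.44 with limma on log2 FPKM at a pseudocount of 0.1, ranged from -12.5 (without aged replicate 2, against libraries all at 0, so no bound) to -1.05 with 1 library left out, and was -0.06 without aged replicates 1 and 3, a choice made after the data were seen. Its log2 spread among aged libraries, 7.64, ranged from 0 (without aged replicate 2) to 7.64 with 1 library left out, and was 7.66 with RLE size factors and 4.85 on log2 FPKM. Kctd12 had no value when each library needed 10 counts, because the gene was then dropped. Gabbr1 (-0.526 to -0.0302, adjusted p 0.273 to 0.99) and Kctd16 (-1.08 to -0.34, adjusted p 0.325 to 0.929) were below 0 under every alternative run, with 0 called. The replicate block gave -0.311 (adjusted p = 0.489) and -0.74 (adjusted p = 0.576). The replicate numbers were not taken as pairs, since same-numbered libraries deviated together with r of 0.0808, 0.121 and 0.103.

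DESeq2 called 1 gene of the GABA-A list, Gabrq (1.46, adjusted p = 6.37e-05), while its adjusted p under the edgeR and limma alternatives was 0.0768 to 0.682. Signs turned for Kctd10 (-0.175 and -0.177 with limma at pseudocounts 1 and 0.1, -0.132 without aged replicates 1 and 3, -0.00398 to 0.137 with 1 library left out), Atf4 (-0.0174 and -0.0176 with limma) and Gnai2 (-0.198 and -0.2 with limma, -0.146 without aged replicates 1 and 3, -0.0718 to 0.109 with 1 library left out). They also turned for Gng11 (-0.282 to 0.0412) and Gabre (-0.0351 to 0.406) with 1 library left out, and for Adcy5 (0.0878 without aged replicates 1 and 3). Limma on log2 FPKM moved the median of all genes to -0.116 and -0.192, from 0.02. The cause of the other changes was not tested. Depth limits Gabbr2 and Kctd8, which had at most 15 counts in a library.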

Other observations

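Other genes were at 0 in some libraries and well counted in others, as Kctd12 was. Of 12181 genes with at least 100 counts in at least 3 libraries, a rule chosen after the data were seen, 13 (0.107%) had 0 counts in at least 1 library. Of these, 5 were at 0 in aged replicate 1, 6 in aged replicate 3 and 2 in both, and no other library had as many of these zeros. Zeros were still not limited to the aged libraries that lacked Kctd12, as the Qser1 counts below show. At 300 counts, 4 of 9723 genes were left, Kctd12, Qser1, Gm20716 and the unnamed ENSMUSG00000118575. Qser1, a chromatin protein gene, had 1398, 0 and 0 counts in young and 803, 0 and 950 in aged libraries. ENSMUSG00000118575 had 0, 1013 and 960 counts in young and 0, 1186 and 0 in aged libraries, so each library counted either it or Qser1 and not both. ENSMUSG00000118575 has no position in GENCODE M21, and Qser1 overlaps no annotated gene there. Whether these genes are related was not tested.

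Adnp, a homeobox gene, had 3279, 0 and 2 counts in young and 4, 6 and 1602 in aged libraries. Gm20716, which overlaps it, had 0, 2903 and 2657 counts in young and 2404, 232 and 0 in aged libraries. Of the 12 such genes with a position in GENCODE M21, 10 (83.3%) overlap another annotated gene, against 6828 of 12174 (56.1%) of the genes that met the count rule. Kctd12 is among the 10. Any shared position between gene bodies, on either strand and with introns included, was taken as an overlap, so an overlap need not mean shared reads. Whether reads moved between overlapping genes was not tested.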
